A study of Homo sapiens with 9 samples.

Results

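Kinesins are motor proteins that use ATP to move along microtubules, and 42 of the 59648 gene symbols in the count files of this Kasumi-1 study belong to the family. They were taken by their symbols alone, as KIF or KIFC followed by a number and at most 1 letter from A to C. By textbook role they fell into 15 mitotic kinesins, 17 transport kinesins and 10 ciliary and signalling kinesins. The members were chosen by symbol, but the family itself was selected on earlier results from these same counts, so how many of its members differed is described and not read as independent evidence. Of the 42 genes, 32 passed a filter on low counts that kept 14741 genes in all, namely 13 mitotic, 14 transport and 5 ciliary and signalling kinesins.

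Kasumi-1 is a human acute myeloid leukaemia line that carries the t(8;21) translocation and makes the AML1-ETO fusion protein, here AE. In the AE knockdown group (libraries 1, 2 and 3) the cells received AE shRNA, in the LYL1 knockdown group (shRNAs 538, 540 and 542) they received shRNA against LYL1, a transcription factor, and in the control group (libraries 1, 2 and 3) a control shRNA. All 3 groups share lentiviral delivery, puromycin selection and RNA taken on day 4, and all come from this 1 line. It is not labelled if AE libraries 1, 2 and 3 carry different shRNAs, nor if libraries of 1 group come from different cultures, so the spread behind the p-values may be technical.

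In dividing cells the mitotic kinesins build the spindle, move and align chromosomes and assemble the midzone at which the cell is cut apart. Transport kinesins carry vesicles, mitochondria, RNA and endosomes toward the cell periphery, most of them through light chains or adaptor proteins. Mitotic kinesin genes are mostly transcribed in G2 and mitosis, and many of their promoters hold a CHR element, which the MuvB complex with B-MYB or FOXM1 binds, beside a CCAAT box, which NF-Y binds. The genes of transport kinesins are for the most part read throughout the cell cycle.

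The promoters of 4 mitotic kinesins and of KIF5B, the most abundant transport kinesin here, are shown because the 4 share both elements while their levels in AE knockdown differed: KIF4A fell, KIF11 and KIF23 varied between the libraries and KIF18A was near the controls. Each line is the 150 bases just before the RefSeq transcription start in GRCh38.p14, written 5′ to 3′ on the strand of the gene. The coordinates are chrX:70289954-70290103 (plus strand) for KIF4A, chr10:92592980-92593129 (plus) for KIF11, chr15:69414199-69414348 (plus) for KIF23, chr11:28108157-28108306 (minus) for KIF18A and chr10:32056426-32056575 (minus) for KIF5B. Capitals mark the CHR letters TTTGAA and the CCAAT letters, each also in reverse complement.
KIF4A: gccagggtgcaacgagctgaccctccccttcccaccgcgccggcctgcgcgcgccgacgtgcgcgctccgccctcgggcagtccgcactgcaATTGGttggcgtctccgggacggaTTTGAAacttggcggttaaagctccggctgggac
KIF11: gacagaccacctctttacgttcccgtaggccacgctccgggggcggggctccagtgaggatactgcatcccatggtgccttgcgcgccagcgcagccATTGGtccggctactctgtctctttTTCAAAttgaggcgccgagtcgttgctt
KIF23: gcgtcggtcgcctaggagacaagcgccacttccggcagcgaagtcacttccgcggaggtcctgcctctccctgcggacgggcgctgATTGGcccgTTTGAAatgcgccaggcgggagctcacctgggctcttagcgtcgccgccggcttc
KIF18A: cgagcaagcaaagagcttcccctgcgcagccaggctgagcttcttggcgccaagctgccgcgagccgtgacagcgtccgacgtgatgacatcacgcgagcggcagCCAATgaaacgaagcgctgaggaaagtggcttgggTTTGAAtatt
KIF5B: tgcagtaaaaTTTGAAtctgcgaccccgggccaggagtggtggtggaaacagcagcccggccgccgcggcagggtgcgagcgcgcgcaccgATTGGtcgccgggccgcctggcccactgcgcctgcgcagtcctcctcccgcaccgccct

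The first base of the CHR match lay 34 bases before the start in KIF4A, 28 in KIF11, 55 in KIF23 and 10 in KIF18A. The CCAAT match lay 58, 53, 64 and 45 bases before the start of the same genes, so in all 4 it came just upstream of the CHR match. In KIF5B the order was turned round, with the CHR letters 140 and the CCAAT letters 59 bases before the start. Among the RefSeq windows of 300 bases (250 before and 50 after the start, both strands searched), CHR letters stood in 9 of 14 windows of the tested mitotic kinesins (64.29%, 13 genes) and in 1 of 16 windows of the tested transport kinesins (6.25%, 11 genes), against 15.16% of all 35116 windows. CCAAT letters stood in 10 mitotic windows (71.43%) and 5 transport windows (31.25%), against 34.61% of all windows. The core RUNX letters TGTGGT, which AML1 and its fusion can bind, stood in 3 mitotic windows (21.43%), those of KIF18A, KIF18B and KIF22, and in 1 transport window (6.25%), that of KIF1B, against 13.07% of all windows. The 4 windows of the ciliary and signalling kinesins (3 genes) held no CHR and no RUNX letters and 1 CCAAT match. No match of one motif overlapped a match of another in the kinesin windows, and a match is a run of letters, not a measured binding site.

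**Figure D1:**
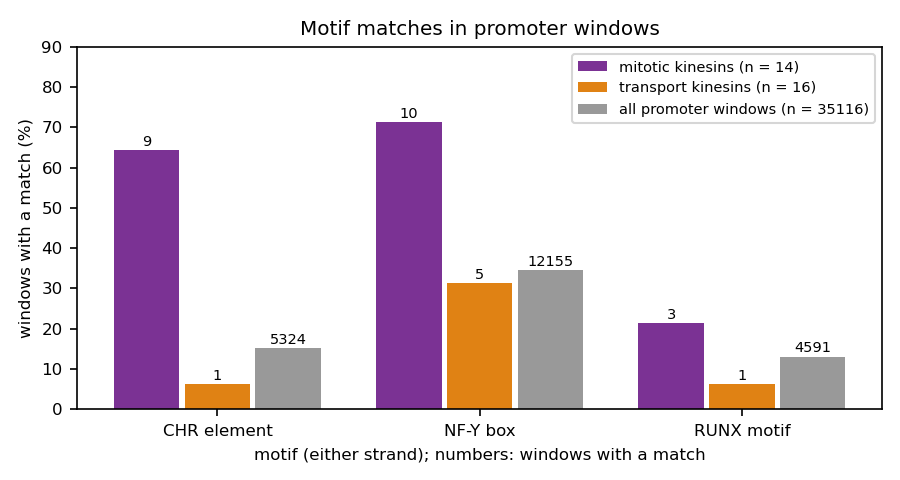
Bars give the percentage of promoter windows that hold a motif on either strand, for 14 windows of mitotic kinesins, 16 of transport kinesins and all 35116 RefSeq windows; the number over each bar is the count of windows with a match. The NF-Y box is the CCAAT motif. CHR letters stood in 64.29% of the mitotic and 6.25% of the transport windows.

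Library totals ran from 20103275 to 28039518 counts. Levels are given as CPM, counts relative to the library total scaled with TMM factors. RUNX1T1, whose reads include those of the fusion, had 114, 136 and 87.6 CPM in AE knockdown libraries 1, 2 and 3, against 215, 223 and 211 CPM in the control libraries, a log2 fold change of -0.94 (SE 0.18, edgeR adjusted p = 0.00778). LYL1 had 80.3, 98.3 and 43.9 CPM with shRNAs 538, 540 and 542, against 172, 172 and 143 CPM in the control libraries, a log2 fold change of -1.13 (SE 0.26) that was not called over all genes (edgeR adjusted p = 0.526). AE knockdown library 3 stood apart, with a TMM factor of 0.914 against 0.998 to 1.04 in the other 8 libraries and 1.21% of its counts on mitochondrial ribosomal RNA against 0.483% to 0.791%. Markers of myeloblasts summed to 17809.5 to 34250.1 CPM in AE knockdown, 12771 to 17724 CPM in LYL1 knockdown and 19010.3 to 22003.5 CPM in control libraries. Most of this sum was MPO, with 32465, 16217 and 30526 CPM in AE knockdown libraries 1, 2 and 3. The myeloblast markers went different ways in AE knockdown against control. CD33 and SPI1 were called higher (log2 fold changes 2.01 and 1.14, edgeR adjusted p = 0.00103 and 0.00542). RUNX1T1, also on that list, was lower, and CD34, KIT, MPO and CD38 were not called. Markers of T cells, B cells, erythroid cells and fibroblasts summed to at most 10.3 CPM in any library, with MS4A1, HBA1 and COL1A2 at 0 in all. The 3 T cell markers summed to 0.715 to 1.20 CPM in AE knockdown, against 4.07 to 5.95 CPM in control libraries. This difference was mostly that of CD3D, which averaged 0.456 CPM in AE knockdown and 4.24 CPM in control libraries. CD3E averaged 0.514 and 0.559 CPM in the same groups, and CD2 had at most 2 reads in any of their libraries. The part of these cell markers in the results was not tested.

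Per kilobase of the longest protein-coding transcript, KIF5B had the highest control level of the family, 84.7 CPM per kb. KIF5B is the heavy chain of the ubiquitous conventional kinesin. The mitotic kinesins filled the next 12 places. KIF2A, a kinesin-13 that takes tubulin off microtubule ends, had 67.3 CPM per kb, and its mitotic relative KIF2C had 38.2. KIF15, which can stand in for KIF11 in keeping spindle poles apart, had 35.7 CPM per kb, KIF22, a chromosome-arm motor, 35.4, and KIF11, the kinesin-5 that slides spindle microtubules apart, 34.4. KIF20A, which takes the chromosomal passenger complex to the midzone, had 30.0 CPM per kb and KIF23, a subunit of centralspindlin, 24.4. After KIF5B the transport kinesins with the highest levels per kb were KIF1C at 6.43, KIF21B at 6.32, KIF3C at 6.03 and KIF1B at 5.62, all below KIF18A at 10.5, the lowest mitotic kinesin other than KIF4B at 0.760. KIF4B is a near-identical copy of KIF4A, so reads may be split between them and both counts are uncertain.

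The 10 genes that did not pass the filter were KIF2B and KIFC1 of the mitotic class, KIF5A, KIF13A and KIFC3 of the transport class, and KIF6, KIF12, KIF19, KIF25 and KIF26A of the ciliary and signalling class. KIF2B, KIF12 and KIF25 had no read in any library, and the others except KIFC1 had at most 8. KIFC1, the minus-end motor that focuses spindle poles, had 57 reads in control library 1 and 0 to 2 in the other 8. Its counts cannot be read as its level, since most of its RefSeq neighbours on chromosome 6 were also listed near 0, among them the ribosomal protein gene RPS18 with at most 1 read. The members that passed with the fewest reads were KIF5C, KIF17 and KIF7, with medians of 17, 22 and 46 reads per library.

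**Figure D2:**
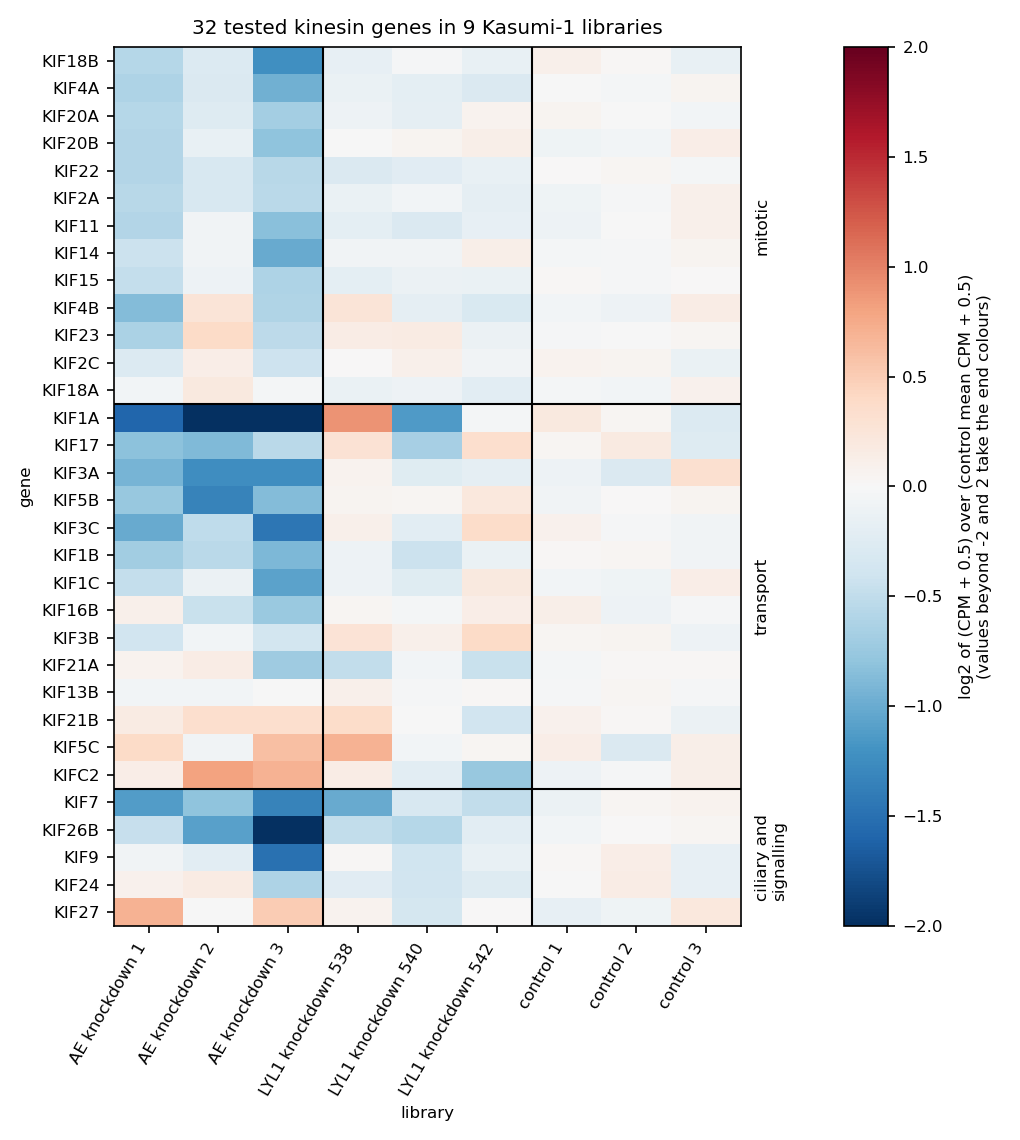
Each row is 1 of the 32 tested kinesin genes and each column 1 library, grouped as AE knockdown, LYL1 knockdown and control; colour is the log2 of (CPM + 0.5) over (control mean CPM + 0.5), blue for lower and red for higher. AE knockdown libraries 1 and 3 are blue for all 13 mitotic kinesins, and AE knockdown library 2 is paler for them than for KIF5B, KIF3A and KIF1A.

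In AE knockdown against control, 12 of the 32 tested kinesins fell and none rose, beside 10.4% of all 14741 tested genes that fell, 11.4% that rose and 21.8% called in either direction. A gene is called at an edgeR quasi-likelihood adjusted p below 0.05 over all tested genes. The spread behind these calls also draws on the LYL1 knockdown libraries. With only the 6 libraries compared, KIF18B, KIF4A, KIF20A and KIF26B were not called and KIF17 was. At an unadjusted p below 0.05 in edgeR, 18 kinesins were lower and 1, KIFC2, higher, beside 37.2% of all tested genes in either direction. The falls were spread over the classes, with 5 of 13 mitotic, 5 of 14 transport and 2 of 5 ciliary and signalling kinesins. The median log2 fold change was -0.47 for mitotic, -0.41 for transport and -0.47 for ciliary and signalling kinesins, beside 0.05 for all tested genes. The range differed more than the median: mitotic kinesins ran from -0.64 to 0.04 and transport kinesins from -2.65 to 0.60. In bulk RNA, fewer cells of a kind, such as cells in mitosis, and less RNA per cell cannot be told apart.

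KIF5B had 295, 196 and 273 CPM in AE knockdown libraries 1, 2 and 3, against 476, 499 and 519 CPM in control libraries 1, 2 and 3. Every AE knockdown library lay well below every control library, and library 2 was the lowest. KIF5B fell 1.96-fold, a log2 fold change of -0.97 (SE 0.16, edgeR adjusted p = 0.00507). KIF5B made up 61.3% of the summed control CPM of the transport kinesins, so sums over that class mostly follow this gene.

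The kinesin-II subunits differed among themselves. KIF3A, which pairs with KIF3B or KIF3C, had 5.36, 4.19 and 4.18 CPM in AE knockdown libraries 1, 2 and 3, against 9.87, 8.62 and 13.4 CPM in the control libraries. The groups did not overlap, and KIF3A fell by 1.21 on the log2 scale (SE 0.22, edgeR adjusted p = 0.00628). KIF3C had 15.8, 22.6 and 11.5 CPM in AE knockdown, against 34.1, 31.9 and 30.8 CPM in control libraries, and fell by 0.95 on the log2 scale (SE 0.23, edgeR adjusted p = 0.0171). Library 2 was the highest of the AE knockdown libraries for KIF3C but still under all controls. KIF3B had 21.9, 27.4 and 22.0 CPM in AE knockdown, against 29.2, 29.7 and 26.7 CPM in control libraries, so that library 2 lay among the controls. Its log2 fold change of -0.26 (SE 0.15, edgeR adjusted p = 0.216) did not pass, with a 95% interval from -0.55 to 0.03.

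Among the kinesin-3 motors, KIF1B, which carries mitochondria and vesicles, had 37.0, 41.3 and 31.9 CPM in AE knockdown libraries, against 61.2, 62.0 and 56.8 CPM in control libraries. The groups were clearly apart, and KIF1B fell by 0.71 on the log2 scale (SE 0.14, edgeR adjusted p = 0.00934). KIF1A, known as a motor of synaptic vesicle precursors in neurons, was low in these cells, with 39, 26 and 0 reads (1.39, 0.915 and 0 CPM) in AE knockdown libraries, against 148, 141 and 100 reads (5.99, 5.31 and 4.20 CPM) in control libraries. It fell by 2.65 on the log2 scale (SE 0.70, edgeR adjusted p = 0.0246), a size that depends on the prior count because 1 library is listed at 0. KIF1C had 36.3, 47.1 and 24.03 CPM in AE knockdown, against 49.1, 47.7 and 55.8 CPM in control libraries, and was not called (log2 fold change -0.50, SE 0.22, edgeR adjusted p = 0.118).

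KIF13B, another kinesin-3, varied little, with 25.5, 25.5 and 26.3 CPM in AE knockdown, against 26.1, 27.3 and 26.0 CPM in control libraries. Its log2 fold change was -0.04 (95% interval -0.28 to 0.20), and its sign depended on the scaling. KIF16B, an early endosome motor, had 16.4, 11.2 and 8.94 CPM in AE knockdown, against 16.7, 14.2 and 15.0 CPM in control libraries, and was not called (edgeR adjusted p = 0.285). KIF17 had 13, 12 and 14 reads in AE knockdown, against 31, 38 and 22 reads in control libraries. These low counts did not overlap, but KIF17 was not called (log2 fold change -1.24, SE 0.44, edgeR adjusted p = 0.0650).

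The AE knockdown libraries all lay above the controls for KIFC2 and KIF21B, and neither gene was called. KIFC2, a C-terminal motor, had 9.97, 16.1 and 14.9 CPM in AE knockdown, against 8.33, 8.89 and 9.78 CPM in control libraries (log2 fold change 0.60, SE 0.25, edgeR adjusted p = 0.109). Some 17.8% of the exonic bases of KIFC2 overlap FOXH1 in GENCODE v29, and the counting of such reads is not given in the sources used here. KIF21B, a kinesin-4 that slows microtubule growth, had 70.1, 78.8 and 78.8 CPM in AE knockdown, against 66.3, 63.9 and 57.4 CPM in control libraries (log2 fold change 0.28, SE 0.18, edgeR adjusted p = 0.269). Its paralog KIF21A had 13.3, 14.1 and 7.55 CPM in AE knockdown, against 12.3, 12.8 and 12.9 CPM in control libraries, with only library 3 below the controls. KIF5C stayed at most at 1.20 CPM in AE knockdown and 0.728 CPM in control libraries. In all, 7 transport kinesins lay lower and 2 higher with no overlap between the groups, beside 22.2% of all tested genes lower and 23.1% higher.

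The 5 mitotic kinesins that fell in AE knockdown were KIF18B, KIF4A, KIF20A, KIF22 and KIF2A, each by less than any called transport kinesin. KIF4A, a chromosome-bound motor that also shortens midzone microtubules with PRC1, had 48.7, 61.1 and 38.2 CPM in AE knockdown, against 73.8, 72.4 and 77.6 CPM in control libraries. KIF4A fell by 0.60 on the log2 scale (SE 0.16, edgeR adjusted p = 0.0261). KIF20A had 64.9, 80.6 and 59.7 CPM in AE knockdown, against 99.7, 96.0 and 92.6 CPM in control libraries. It fell by 0.49 (SE 0.14, edgeR adjusted p = 0.0315). In both genes the groups did not overlap and library 2 was the nearest to the controls.

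KIF22 had 59.1, 71.0 and 60.2 CPM in AE knockdown, against 89.1, 90.7 and 86.0 CPM in control libraries, and fell by 0.48 on the log2 scale (SE 0.12, edgeR adjusted p = 0.0205). KIF2A had 153, 181 and 155 CPM in AE knockdown, against 213, 223 and 243 CPM in control libraries, and fell by 0.47 (SE 0.13, edgeR adjusted p = 0.0246). KIF18B, which acts with KIF2C at astral microtubule ends, had 40.2, 49.6 and 25.3 CPM in AE knockdown, against 64.2, 61.0 and 54.0 CPM in control libraries, and fell by 0.64 (SE 0.21, edgeR adjusted p = 0.0484). All 3 were below the controls in each AE knockdown library, again with library 2 the highest of the 3. Some 13.0% of the exonic bases of KIF22 overlap another annotated gene.

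The other 8 mitotic kinesins were not called. KIF11 had 111, 158 and 92.9 CPM in AE knockdown, against 156, 166 and 178 CPM in control libraries. Libraries 1 and 3 were far below the controls and library 2 among them, and the log2 fold change of -0.47 (SE 0.18) had an edgeR adjusted p of 0.0827. KIF23 had 58.3, 119 and 63.2 CPM in AE knockdown, against 88.8, 89.9 and 93.3 CPM in control libraries. Library 2 here lay above every control and the other 2 below, for a log2 fold change of -0.18 (95% interval -0.64 to 0.28, edgeR adjusted p = 0.608).

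KIF20B, a cytokinesis motor, had 96.6, 131 and 82.5 CPM in AE knockdown, against 137, 140 and 159 CPM in control libraries, and just missed the threshold (edgeR adjusted p = 0.0576). KIF15 had 124, 161 and 113 CPM in AE knockdown, against 175, 170 and 173 CPM in control libraries (edgeR adjusted p = 0.0797). KIF14, which works with citron kinase in cytokinesis, had 57.1, 73.2 and 37.9 CPM in AE knockdown, against 75.1, 75.9 and 80.05 CPM in control libraries (edgeR adjusted p = 0.121). All 3 were below the controls in every AE knockdown library without passing the test. KIF2C had 93.2, 124 and 84.9 CPM in AE knockdown, against 118, 118 and 103 CPM in control libraries, and its groups overlapped. KIF18A, which damps the swings of chromosomes at the metaphase plate, had 36.0, 42.6 and 36.5 CPM in AE knockdown, against 36.4, 35.9 and 39.6 CPM in control libraries, with a log2 fold change of 0.04 (95% interval -0.21 to 0.29). In all, 8 of 13 mitotic kinesins lay lower in AE knockdown with no overlap and none higher, beside 22.2% of all tested genes lower and 23.1% higher.

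**Figure D3:**
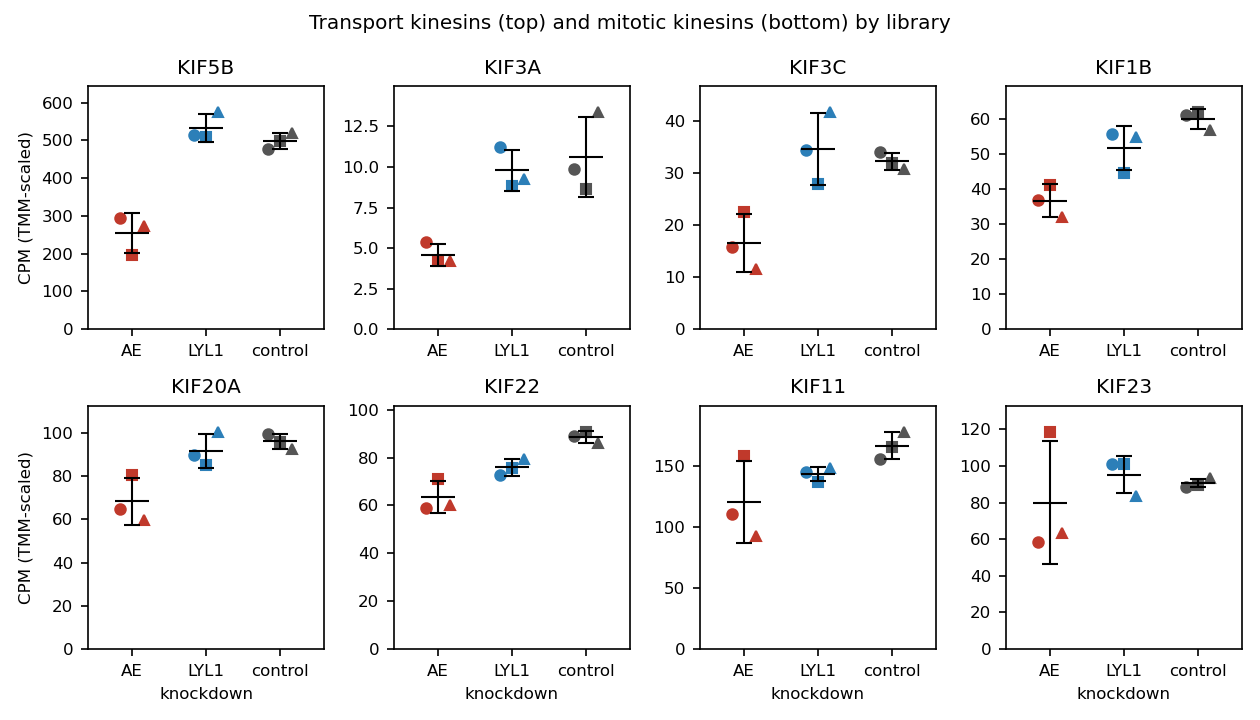
CPM (linear axis from 0) of 4 transport kinesins (top) and 4 mitotic kinesins (bottom) in AE knockdown (red), LYL1 knockdown (blue) and control (grey) libraries; circles, squares and triangles are libraries 1, 2 and 3 of AE knockdown and control and shRNAs 538, 540 and 542 of LYL1, lines and bars the mean and SD of 3. KIF5B is lowest in AE knockdown library 2 (196 CPM), while KIF11 and KIF23 are highest there (158 and 119 CPM).

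All 13 tested mitotic kinesins had their highest AE knockdown level in library 2, beside 31.8% of all tested genes and 6 of 14 transport kinesins. Summed over the class, mitotic kinesins stood at 69.8%, 93.0% and 63.0% of the control mean in AE knockdown libraries 1, 2 and 3, against 98.4% to 102% in single control libraries. The 13 transport kinesins with a control mean of at least 1 CPM stood at 67.5%, 59.7% and 62.0%, against 98.1% to 102% in single control libraries. Without KIF5B, the remaining 12 transport kinesins stood at 80.5%, 92.0% and 73.4%, with library 2 the highest here too. KIF5B itself stood at 59.2%, 39.3% and 54.8% of its control mean.

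By the median member rather than the sum, the log2 ratio to the control mean was -0.57, -0.10 and -0.61 for mitotic kinesins in AE knockdown libraries 1, 2 and 3, and -0.48, -0.44 and -0.74 for transport kinesins. The median SD of log2 CPM between the libraries of a group was 0.335 in AE knockdown and 0.0762 in control for mitotic kinesins, and 0.313 and 0.107 for transport kinesins. It was 0.280 and 0.0994 for the 12164 tested genes with a control mean of at least 1 CPM. RUNX1T1 stood at 52.6%, 63.0% and 40.5% of its control mean in the same 3 AE knockdown libraries, highest in library 2 as well. RUNX1 stood at 63.5%, 61.0% and 52.3% of its control mean, highest in library 1. The part of these 2 genes or of the depth and RNA values of library 3 in the mitotic pattern was not tested.

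**Figure D4:**
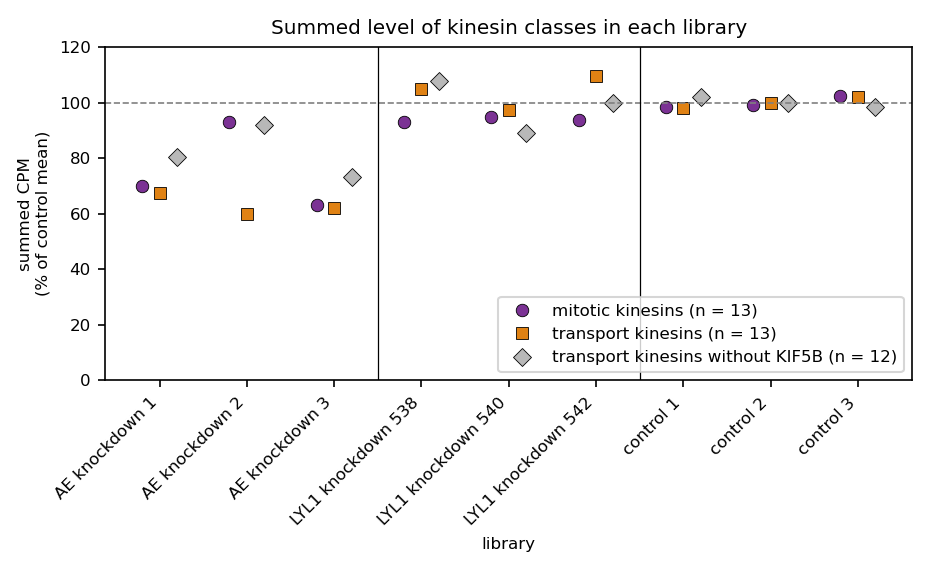
Summed CPM of the tested mitotic kinesins (circles, 13 genes), transport kinesins with a control mean of at least 1 CPM (squares, 13 genes) and the same without KIF5B (diamonds, 12 genes), as a percentage of the control mean (dashed line at 100), in each of 9 libraries. In AE knockdown library 2 the mitotic sum is at 93.0% and the transport sum at 59.7%, or 92.0% without KIF5B.

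Of the ciliary and signalling kinesins, KIF7, the Hedgehog pathway regulator of the cilium tip, had 1.21, 1.62 and 0.961 CPM in AE knockdown, against 2.91, 3.31 and 3.40 CPM in control libraries. KIF7 fell by 1.32 on the log2 scale (SE 0.29, edgeR adjusted p = 0.0122), with no overlap, although 11.8% of its exonic bases overlap TICRR. KIF26B, a kinesin without motor ATPase activity, had 8.22, 5.17 and 1.83 CPM in AE knockdown, against 11.04, 11.7 and 11.9 CPM in control libraries, and fell by 1.16 (SE 0.37, edgeR adjusted p = 0.0462). Its AE knockdown libraries were widely spread but all under the controls. KIF9, KIF24 and KIF27 were not called, with log2 fold changes of -0.47, -0.08 and 0.47.

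How many mitotic kinesins were called in AE knockdown depended on single libraries. None was called without any 1 of the 3 control libraries, 1 without AE knockdown library 1, 3 without library 3 and 11 without library 2. Without any 1 LYL1 knockdown library the count was 4. KIF18B was called only without AE knockdown library 2. Calls over all tested genes, 3214 with all 9 libraries, moved too. They were 1096, 954 and 1050 without control library 1, 2 or 3. Without AE knockdown library 1, 2 or 3 they were 3057, 4268 and 2585. KIF5B, KIF3A and KIF1B fell in every fit that left out 1 of the 9 libraries. The other called transport kinesins, KIF3C and KIF1A, were not called without any 1 control library, which left 3, nor was KIF7 without control library 2 or 3, and KIF26B was called only without AE knockdown library 1 or 3.

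In LYL1 knockdown against control, none of the 32 tested kinesins was called by edgeR, DESeq2 or limma-voom, beside 0.0136% of all tested genes called by edgeR. The smallest edgeR adjusted p was 0.970, that of KIF7, the only kinesin with an unadjusted p below 0.05, beside 4.82% of all tested genes. KIF7 had 1.34, 2.48 and 2.14 CPM with shRNAs 538, 540 and 542, against 2.91, 3.31 and 3.40 CPM in control libraries, for a log2 fold change of -0.70 (95% interval -1.24 to -0.15 before adjustment). The median log2 fold change was -0.11 for mitotic, 0.04 for transport and -0.30 for ciliary and signalling kinesins, beside 0.01 for all tested genes.

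Of the 12 kinesins that fell with AE knockdown, 5 lay below every control in all LYL1 knockdown libraries without being called, beside 8.17% of all tested genes. They were KIF7, KIF26B, KIF22, KIF4A and KIF1B. The 12 were called against the same 3 control libraries, which favours such an overlap, so it is not read as a shared response. KIF26B had 8.05, 7.58 and 9.87 CPM in LYL1 knockdown, against 11.04, 11.7 and 11.9 CPM in control libraries (log2 fold change -0.44, 95% interval -1.16 to 0.27). KIF5B overlapped the controls. It had 515, 509 and 575 CPM in LYL1 knockdown, against 476, 499 and 519 CPM in control libraries, for a log2 fold change of 0.10 (95% interval -0.22 to 0.42). KIF3A had 11.2, 8.86 and 9.27 CPM in LYL1 knockdown, and KIF3C 34.5, 27.8 and 41.7 CPM, both spread across the control range. KIF1A varied most among the LYL1 shRNAs, with 10.0, 2.09 and 4.98 CPM, on either side of the controls at 4.20 to 5.99 CPM.

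The mitotic kinesins were close together in LYL1 knockdown, their sum standing at 93.0%, 94.9% and 93.8% of the control mean with shRNAs 538, 540 and 542. The median SD of log2 CPM of these genes between the LYL1 knockdown libraries was 0.0754, beside 0.193 for the 12164 tested genes with a control mean of at least 1 CPM. Of the 32 kinesins, 10 lay lower in all LYL1 knockdown libraries than in all control libraries and 1, KIF3B, higher, beside 8.17% and 8.41% of all tested genes. Among the 10 were KIF22, with 72.6, 75.7 and 79.6 CPM in LYL1 knockdown, against 89.1, 90.7 and 86.0 CPM in control libraries (log2 fold change -0.22, 95% interval -0.46 to 0.02), and KIF11, with 145, 137 and 149 CPM, against 156, 166 and 178 CPM. The spread of each gene was estimated over all 9 libraries, so the AE knockdown libraries also enter these intervals and p-values. With only the 6 libraries compared, no kinesin was called either. Since none passed the test, no change is read from these small differences.

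**Figure D5:**
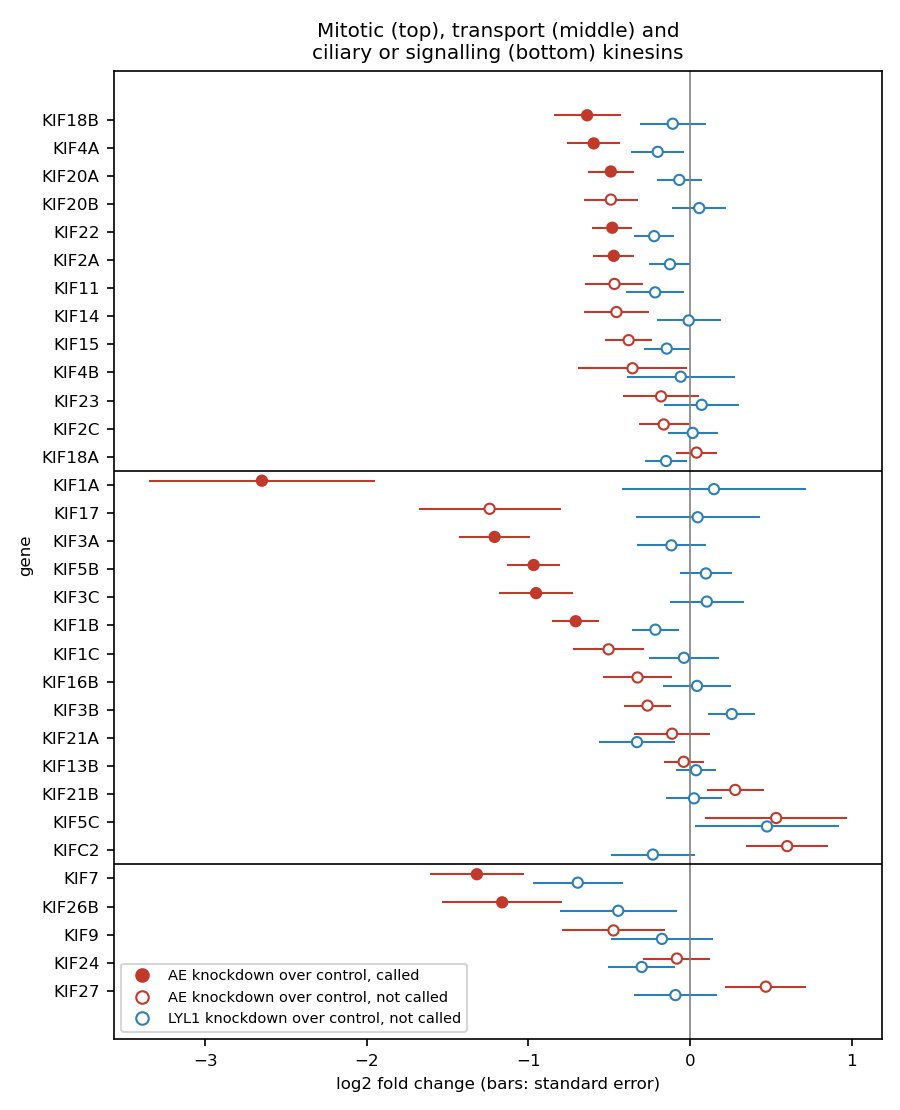
Log2 fold change over control with its standard error for each tested kinesin in AE knockdown (red, filled where called) and LYL1 knockdown (blue); mitotic kinesins are on top, transport kinesins in the middle and ciliary or signalling kinesins at the bottom. Called mitotic kinesins lie between -0.64 and -0.47 in AE knockdown and called transport kinesins between -2.65 and -0.71.

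The comparisons of both knockdowns with control share the control libraries, so the knockdowns were also compared with each other. In AE knockdown against LYL1 knockdown, 7 of 32 kinesins were lower and 1 higher, beside 9.7% of all tested genes lower, 10.7% higher and 20.4% in either direction. The classes differed in their counts of calls, with 6 of 14 transport kinesins lower and 1 higher and 1 of 13 mitotic kinesins lower. They were more alike by other counts. With no overlap, 6 transport and 6 mitotic kinesins lay lower and 0 and 1 higher, beside 17.2% and 18.2% of all tested genes. At an unadjusted p below 0.05 in edgeR, 7 transport and 6 mitotic kinesins were lower and 1 and 0 higher. Of all 14741 tested genes, 2532 were lower and 2818 higher at that cut. The median log2 fold change was -0.48 for transport and -0.30 for mitotic kinesins, beside 0.03 for all tested genes.

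KIF5B was lower in AE than in LYL1 knockdown by 1.07 on the log2 scale (SE 0.16, edgeR adjusted p = 0.00379), with 295, 196 and 273 CPM in AE knockdown, against 515, 509 and 575 CPM in LYL1 knockdown. KIF3A (log2 fold change -1.09, SE 0.22), KIF3C (-1.06, SE 0.23) and KIF1A (-2.80, SE 0.70) were lower too, at edgeR adjusted p values of 0.00905, 0.0120 and 0.0212. KIF3B had 21.9, 27.4 and 22.0 CPM in AE knockdown, against 34.6, 30.5 and 37.3 CPM in LYL1 knockdown, and was lower by 0.52 on the log2 scale (SE 0.15, edgeR adjusted p = 0.0308). The last transport kinesin called lower was KIF1B (log2 fold change -0.49, SE 0.14, edgeR adjusted p = 0.0351). With KIF3A, KIF3B and KIF3C, all kinesin-II motor subunits were thus called lower in AE than in LYL1 knockdown. KIF3B was called in neither knockdown against control. In LYL1 knockdown it lay above every control (log2 fold change 0.26, SE 0.15). With only the 6 libraries compared, KIF3A and KIF5B were called and the other 5 kinesins called lower here, KIF3B and KIF3C among them, were not.

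KIFC2 had 9.97, 16.1 and 14.9 CPM in AE knockdown, against 10.0, 7.73 and 5.13 CPM in LYL1 knockdown, and was higher by 0.83 on the log2 scale (SE 0.26, edgeR adjusted p = 0.0417), although the groups overlapped at AE knockdown library 1 and shRNA 538. KIF20B, the 1 mitotic kinesin called, had 96.6, 131 and 82.5 CPM in AE knockdown, against 144, 151 and 158 CPM in LYL1 knockdown (log2 fold change -0.55, SE 0.17, edgeR adjusted p = 0.0410). With no overlap between AE and LYL1 knockdown, 12 kinesins lay lower and 1, KIF18A, higher, beside 17.2% and 18.2% of all tested genes. The mitotic count was 9 without AE knockdown library 2 and 0 without any other single library, and the transport count ran from 3 without shRNA 538 to 7 without library 2 or shRNA 540. Among these fits KIF5B, KIF3A and KIF3C were always called, KIF1A not without shRNA 538, KIF3B only without control library 3, AE knockdown library 2 or shRNA 540, KIF1B only without the last of these or AE knockdown library 2, and KIFC2 only without AE knockdown library 1 or shRNA 538.

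Other genes of the kinesin pathways were taken from lists built from textbook roles. Of 19 tested kinesin partners and adaptors, 1 fell in AE knockdown against control, CENPE, itself a kinesin of the kinetochore, and none rose, beside 10.4% and 11.4% of all tested genes. CENPE had 68.3, 95.3 and 66.8 CPM in AE knockdown, a mean of 76.8 ± 16.1, against a mean of 129 ± 14.4 CPM in control libraries (SD, n = 3 each), and fell by 0.75 on the log2 scale (SE 0.16, edgeR adjusted p = 0.0108). The light chains, mitochondrial adaptors and lysosome adaptors of the list were not called, and the median log2 fold change of the list was 0.02. The count lower was 0 without control library 3 and 3 without AE knockdown library 2, and 1 gene was called higher without AE knockdown library 1 or 2.

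Of 16 tested spindle and midzone partners of mitotic kinesins, 5 fell in AE knockdown and none rose, beside 10.4% of all tested genes that fell and 11.4% that rose, with a median log2 fold change of -0.24. INCENP, the scaffold of the passenger complex that KIF20A carries, averaged 78.2 ± 20.2 CPM in AE knockdown and 158 ± 8.11 CPM in control libraries (SD, n = 3 each) and fell by 1.01 (SE 0.18, edgeR adjusted p = 0.00564). TPX2, a spindle assembly factor that binds KIF11 and KIF15, averaged 196 ± 40.4 CPM in AE knockdown and 341 ± 2.92 CPM in control libraries and fell by 0.80 (SE 0.16, edgeR adjusted p = 0.00847). NUMA1, which anchors dynein at spindle poles, CIT, the citron kinase that binds KIF14, and PLK1 fell as well. As with the mitotic kinesins, 14 of the 16 genes had their highest AE knockdown level in library 2.

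Of 15 tested regulators of mitotic genes, 3 fell in AE knockdown and none rose, beside the same 10.4% and 11.4% of all tested genes, with a median log2 fold change of -0.30. FOXM1, the activator that joins MuvB at CHR elements, had 105, 131 and 90.2 CPM in AE knockdown, a mean of 109 ± 20.6, against a mean of 172 ± 15.7 CPM in control libraries (SD, n = 3 each), and fell by 0.67 on the log2 scale (SE 0.16, edgeR adjusted p = 0.0162). TFDP1, the partner of E2F factors, fell by 0.78 (SE 0.19, edgeR adjusted p = 0.0165) and NFYA, the NF-Y subunit that contacts CCAAT, by 0.56 (SE 0.17, edgeR adjusted p = 0.0355). The other 12 regulators, among them MYBL2 (B-MYB), NFYB and NFYC, were not called. The part of these regulators in the levels of the mitotic kinesins was not tested. Leaving out single control libraries left 3, 3 and 4 calls among the spindle partners and 0, 0 and 1 among the regulators, and without AE knockdown library 2 both lists had 7. In LYL1 knockdown against control none of these 3 lists had a called member by edgeR, DESeq2 or limma-voom, and 1 gene of the partners and adaptors had an unadjusted p below 0.05 in edgeR.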

How the data were processed

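RNA-seq counts of 9 Kasumi-1 libraries, 3 per group, were analysed. The deposited values are raw, unscaled read counts per gene symbol. The submitters' processing notes list the hg19 build, featureCounts 2.0.1, HISAT2 2.2.0, fastp 0.20.1, SAMtools 1.7 and DESeq2 1.26.0, without saying what each was used for. Annotation, strand setting and the treatment of multiply mapped reads are not given in the sources used here. In 6 files, 5 gene names carried a decimal suffix, which was removed.

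Genes were kept with filterByExpr by group (minimum count 10) and scaled with TMM. Groups were compared in edgeR 4.0.16 (R 4.3.3, quasi-likelihood test, robust dispersions), with all 9 libraries in 1 group-means model and Benjamini-Hochberg adjustment over 14741 genes. The libraries of the group left out of a comparison therefore also inform its spread. For AE knockdown against control these are the LYL1 knockdown libraries. They are the control libraries for AE against LYL1 knockdown and the AE knockdown libraries for LYL1 knockdown against control. The threshold for a call was an adjusted p of 0.05. The SE is the log2 fold change divided by the square root of F, 95% intervals are normal, and fold changes use a prior count of 0.125. Normal intervals are narrower than intervals from the F test would be. For KIF1C in AE against LYL1 knockdown, one ran from -0.89 to -0.04 at an unadjusted edgeR p of 0.0561. Log2 ratios to the control mean and SDs of log2 CPM use CPM + 0.5, and these and the class sums use genes of at least 1 CPM in control. Groups do not overlap where every CPM of one lies above every CPM of the other. Library totals of 20103275 to 28039518 counts limit precision for genes with few reads, such as KIF5C and KIF17.

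The family, its classes, the gene lists and the tests were chosen with earlier results of these data known. All 42 kinesins are accounted for and every called one is named. Of the other lists, every member called in AE knockdown against control is named, where the plan was up to 4 per list. No set test was run. Transcript lengths come from GENCODE v29 and promoters from RefSeq (GRCh38.p14), matched by symbol for 27 of 32 tested kinesins. The fit was tested on simulated counts. Alternatives were other scalings and filters, DESeq2 1.42.0, limma-voom (limma 3.58.1), 6-library fits, a length and GC correction, a replicate block, a stricter threshold and leaving out each library; the legacy edgeR test and the list counts per setting were added after seeing the data.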

Additional observations from a re-analysis of the deposited data

How the results depend on the processing

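No called kinesin changed direction under any alternative, and KIF5B, KIF3A and KIF1B were called in AE knockdown against control under all of them. Apart from leaving out single libraries there were 12 alternatives for that comparison. The call of KIF26B was lost in 8 of them, that of KIF18B in 6, KIF20A in 4 and KIF4A in 3. In AE knockdown against control the mitotic count lower (5) was 2 with the 6 libraries compared only and 0 at an adjusted p below 0.01, and ran from 0 to 11 when single libraries were left out; the transport count lower (5) was 3 at p below 0.01 and ran from 3 to 6, and 1 transport kinesin, KIF21B, was called higher with the length and GC correction. Over all genes the 3214 calls became 813 at p below 0.01 and 954 to 4268 with a library left out. In LYL1 knockdown against control no kinesin was called under any alternative; over all genes the 2 calls became 5 with library size only, 8 with no filter, 1 with the strict filter, 34 with DESeq2, 15 with 6 libraries, 6 with the length and GC correction, 1 at p below 0.01, and 1 to 11 with a library left out. In AE against LYL1 knockdown the mitotic count lower (1) was 0 with library size only, 6 libraries, the length and GC correction or p below 0.01, 2 with the strict filter, 3 with DESeq2, and 0 to 9 with a library left out; the transport count lower (6) was 3 with no filter, 2 with 6 libraries or p below 0.01, and 3 to 7; the transport count higher (1) was 0 with library size only, 6 libraries or p below 0.01, and 0 to 1; all calls (3003) became 941 with 6 libraries, 784 at p below 0.01 and 1460 to 4007. The length and GC correction moved the median log2 fold change of transport kinesins to -0.22 in AE knockdown against control and -0.28 against LYL1 knockdown, and that of mitotic kinesins in LYL1 knockdown to -0.072; no filter moved the last to -0.14. With a library left out, these medians ran from -0.63 to -0.32 (mitotic) and -0.57 to -0.26 (transport) in AE knockdown against control, -0.15 to -0.087 and -0.092 to 0.073 in LYL1 knockdown against control, and -0.56 to -0.22 and -0.61 to -0.33 in AE against LYL1 knockdown. Signs changed in AE knockdown against control for uncalled genes near 0: KIF13B (0.0093 with upper-quartile scaling, 0.21 with the length and GC correction), KIF18A (-0.022 with that correction, -0.044 to 0.082 with a library left out, lowest without AE knockdown library 2), KIF21A (0.046, and -0.27 to 0.10, highest without library 3) and KIF24 (0.11, and -0.23 to 0.11, above 0 without AE knockdown library 3 or control library 2). The causes were not tested. The AE knockdown and control libraries share numbers, but same-numbered libraries deviated with correlations of 0.0416, -0.0135 and 0.00685, so the numbers are not taken as pairs; with the replicate block, 0 mitotic kinesins and 1629 genes in all were called. Depth limits KIF1A, KIF5C, KIF7 and KIF17 most.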

Other observations

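Kinesins move on tubulin, and 4 of 13 tested tubulin genes fell in AE knockdown against control while none rose, beside 10.4% and 11.4% of all tested genes. TUBB4B, a broadly expressed beta-tubulin, had 322, 379 and 260 CPM in AE knockdown, a mean of 320 ± 59.6, against a mean of 526 ± 27.96 CPM in control libraries (SD, n = 3 each), and fell by 0.72 on the log2 scale (SE 0.16, edgeR adjusted p = 0.0126). TUBB6 averaged 174 ± 28.1 CPM in AE knockdown and 264 ± 7.72 CPM in control libraries and fell by 0.60 (SE 0.17, edgeR adjusted p = 0.0320). TUBB4A, known mainly from neurons and glia, fell by 3.24 (SE 0.47, edgeR adjusted p = 0.00300), to 1.15 ± 0.767 CPM in AE knockdown, against 11.4 ± 1.43 CPM in control libraries. The fourth was TUBB, listed at no more than 0.464 CPM in any AE knockdown library; it lies on chromosome 6 and its counts are as uncertain as those of KIFC1. The tubulin count was 1, 1 and 2 without single control libraries, 2 without AE knockdown library 3 and 6 without library 2. Tubulin isotypes are close in sequence, so reads may be split among them.

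The opposite motor, cytoplasmic dynein with its activator dynactin, gave counts near those of all tested genes. Of 18 tested subunits and cofactors, 1 fell and 2 rose in AE knockdown against control, beside 10.4% and 11.4% of all tested genes, with a median log2 fold change of -0.11. DCTN1, the large dynactin subunit, averaged 127 ± 32.3 CPM in AE knockdown and 207 ± 0.727 CPM in control libraries (SD, n = 3 each) and fell by 0.70 (SE 0.17, edgeR adjusted p = 0.0171). DYNLRB1, a dynein light chain, averaged 11.2 ± 2.499 CPM in AE knockdown and 2.25 ± 0.653 CPM in control libraries and rose by 2.30 (SE 0.26, edgeR adjusted p = 0.00103). DCTN3 averaged 49.2 ± 12.0 CPM in AE knockdown and 28.8 ± 2.43 CPM in control libraries and rose by 0.77 (SE 0.19, edgeR adjusted p = 0.0173). Without single control libraries 0 fell and 1 rose, and without any 1 AE knockdown library 2 fell and 2 rose.

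In LYL1 knockdown against control no tubulin was called by edgeR, DESeq2 or limma-voom, and 0 had an unadjusted p below 0.05 in edgeR. No dynein gene was called by edgeR as reported or by limma-voom, 3 had an unadjusted p below 0.05 in edgeR, and 1 was called higher by DESeq2, by edgeR with library size only, no low-count filter, the 6 libraries compared or the length and GC correction, and without AE knockdown library 2 or 3. DYNLRB1 had 8.78, 7.85 and 8.72 CPM with shRNAs 538, 540 and 542, against 2.18, 2.94 and 1.64 CPM in control libraries, all higher in LYL1 knockdown, for a log2 fold change of 1.90 (SE 0.26, edgeR adjusted p = 0.0587).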
